A study of Mus musculus with 2 samples.

Results

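The mitochondrial ribosomal proteins were taken as the gene symbols that begin with Mrpl or Mrps followed by a number. They were 77 of the 32531 gene symbols in both count tables, 48 named for the large subunit (Mrpl) and 29 for the small subunit (Mrps). Their levels were read in 2 libraries of 1 group: adult mice of the Lypd1-EGFP/Rpl10a line OI82, untreated, dentate gyrus, immunopurified RNA. In such mice a ribosomal protein, Rpl10a, is fused to EGFP and made under regulatory sequence of Lypd1, so that antibodies to EGFP recover ribosomes, and the mRNA on them, from the cells that make the fusion. All values are levels within pulled-down RNA, and no input or untagged library was analysed here. Whether the replicates were separate animals or pools of animals is not stated in the labels, so their spread may be technical in part. With 1 group there was no comparison of conditions, and all differences below are between the replicates or between gene lists, with no p-value.

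The mitochondrial ribosome sits in the mitochondrial matrix and makes the few subunits of the respiratory chain and ATP synthase that mitochondrial DNA encodes. Its RNAs come from mitochondrial DNA, whereas all of its proteins are encoded in the nucleus, translated on cytosolic ribosomes and imported. A pull-down of cytosolic ribosomes can therefore hold the mRNAs of these proteins, while the transcripts that the mitochondrial ribosome itself reads are not its targets. Neurons depend on oxidative phosphorylation for much of their ATP.

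The libraries held 31309643 counts on genes in replicate 1 and 32711412 in replicate 2. As a check of the label, levels of cell type markers were read, from lists copied or shortened from a list used on these data before. Of dentate granule cell markers 6 of 6 were detected, with summed levels of 3506 counts per 1000000 counts on genes (CPM) in both replicates. The share of all gene symbols detected was 38.1%, here and for the other markers. Detection alone did not set granule cells apart, since all astrocyte and oligodendrocyte markers were detected too. The median marker had 565 CPM for granule cells, 31.3 CPM for GABAergic cells, 16.9 CPM for oligodendrocytes and 15.5 CPM for astrocytes. It had 2.51 CPM for endothelial cells and 0.535 CPM for microglia. Astrocyte markers (5 of 5 detected) summed to 444 and 474 CPM, of which Slc1a2 alone had 389 and 413 CPM, oligodendrocyte markers (5 of 5) to 186 and 141 CPM, and GABAergic markers (2 of 3) to 70.4 and 119 CPM, in replicates 1 and 2. Endothelial markers (3 of 4) summed to 18.5 and 15.9 CPM and microglial markers (0 of 5, with C1qa and C1qb at 0) to 2.11 and 1.90 CPM. The GABAergic sum was higher in replicate 2 and the oligodendrocyte sum in replicate 1. The part of these cells in the levels below, and in the differences between the replicates, was not tested.

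Nearly all members were present at moderate levels. At 1 CPM or more in both libraries, 75 of 77 were detected, where the share over all gene symbols was 38.1%. Of the 77, 65 lay between 10 and 100 CPM in both libraries and 0 exceeded 100 CPM in either. The median was 26.6 CPM in replicate 1 and 23.1 CPM in replicate 2. Together they took 0.254% of the gene counts in replicate 1 (exact binomial 95% interval 0.253% to 0.256%) and 0.232% in replicate 2 (0.231% to 0.234%). In tissue pull-downs, fewer cells of a type and less RNA per cell cannot be told apart.

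To compare genes, CPM was divided by the length of the gene's annotated exons in kilobases (CPM per kb). On that scale the members' median was 12.5 in replicate 1 and 11.1 in replicate 2, against 5.31 over the 11478 detected protein-coding genes (mean of both libraries). Of the 75 detected members, 59 lay above the median of all detected genes, 28 above its 75th percentile and 5 above its 90th, and 3 lay under its 25th. The members stood below both large gene groups of protein and energy production. The 76 genes of the cytosolic ribosome had a median of 48.3 CPM per kb, 4.12-fold that of the members, and 83 nuclear-encoded subunits of oxidative phosphorylation a median of 57.1 CPM per kb, 4.88-fold. They stood above the factors that serve them: the median was 3.14-fold that of 11 mitochondrial translation factors (3.73 CPM per kb) and 5.29-fold that of 25 mitoribosome assembly factors (2.22 CPM per kb). Reads with more than 1 alignment (15.7% of all lines' counts in replicate 1 and 15.5% in replicate 2) were left out of the gene counts. Their part in the differences between lists was not tested.

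**Figure D1:**
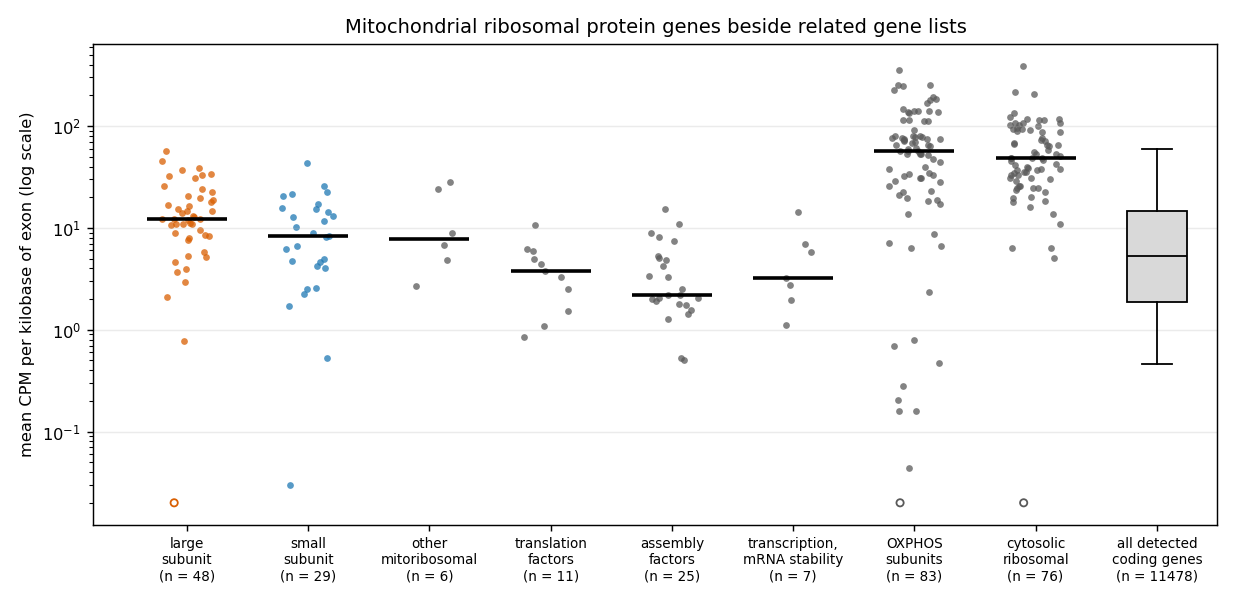
Level of each gene in CPM per kb of exon (log scale, mean of 2 libraries) for the mitochondrial ribosomal proteins and for other gene lists; horizontal bars are list medians, and the box for all detected coding genes spans the quartiles with whiskers from 5% to 95%. The members (median 11.7) sit below the cytosolic ribosomal proteins and the oxidative phosphorylation subunits and above the translation and assembly factors.

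Sorted by name, the large-subunit genes had a higher median than the small-subunit genes, 12.2 against 8.36 CPM per kb. The order was the same in each library, with 13.6 against 9.13 in replicate 1 and 12.2 against 7.61 in replicate 2. Mrps30 and Mrps18a lie in the large subunit and Mrps36 in neither, as given below. By place in the ribosome the medians were 12.2 and 9.56 CPM per kb. Without members that share exon bases with another gene they were 12.8 (27 genes) and 11.0 (18 genes).

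The highest large-subunit member per kb was Mrpl41, a protein specific to the mitochondrial ribosome (chr2:24974117-24975098, minus strand, GRCm38). It had 59.2 CPM per kb in replicate 1 and 53.4 in replicate 2. Next came Mrpl18, a protein of the central protuberance, with 46.3 and 44.5, and Mrpl36, a short zinc-binding protein, with 51.0 and 25.8. Mrpl27, whose bacterial homologue reaches towards the peptidyl transferase centre, had 40.0 and 34.1 CPM per kb, and Mrpl10, at the base of the stalk that recruits translation factors, had 37.9 and 29.3. These 5 led by the mean of both libraries and in replicate 1. In replicate 2, Mrpl39 (35.4), Mrpl50 (33.9) and Mrpl21 (33.4) stood above Mrpl10 and Mrpl36, so the order under Mrpl41 differed between the libraries.

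By place in the ribosome, the 4 genes of the stalks had a median of 17.4 CPM per kb. Besides Mrpl10 they were Mrpl12, the stalk protein itself, which in human cells also binds the mitochondrial RNA polymerase (22.3 in replicate 1 and 13.5 in replicate 2), Mrpl11 (17.4 and 16.3) and Mrpl1 (9.00 and 6.08). The 5 genes near the peptidyl transferase centre, where peptide bonds form, had a median of 16.4 CPM per kb. Mrpl4 had 27.4 and 17.9, Mrpl2 19.5 and 13.4, Mrpl16 13.3 and 14.7, and Mrpl3 11.9 and 12.5. The central protuberance, which in mammals holds a mitochondrial tRNA in place of the small ribosomal RNA found in bacteria, had a median over 7 genes of 13.9 CPM per kb in replicate 1 and 10.2 in replicate 2, with Mrpl18 highest and Mrpl48 lowest (3.26 and 2.66).

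The 6 genes around the exit of the new polypeptide were lower, with a median of 6.86 CPM per kb. Mrpl44 had 13.0 and 13.3, Mrpl22 10.8 and 11.1, and Mrpl45, which anchors the ribosome to the inner membrane, 9.29 and 7.45 CPM per kb. Mrpl47 had 5.47 and 5.24. The others, Mrpl24 (1.57 and 2.66) and Mrpl23 (0.759 and 0.808), were the lowest large-subunit genes with a count. Mrpl23 shared no exon base with another gene, and Mrpl24 shared 26.3% of its exon bases. Mrpl13, at 3.67 CPM per kb in both libraries, and Mrpl48 completed the 5 lowest per kb with Mrpl53, at 0. Mrpl13 and Mrpl48 have long merged exons (7936 and 8152 bases), and had 29.1 and 24.1 CPM as means of both libraries.

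**Figure D2:**
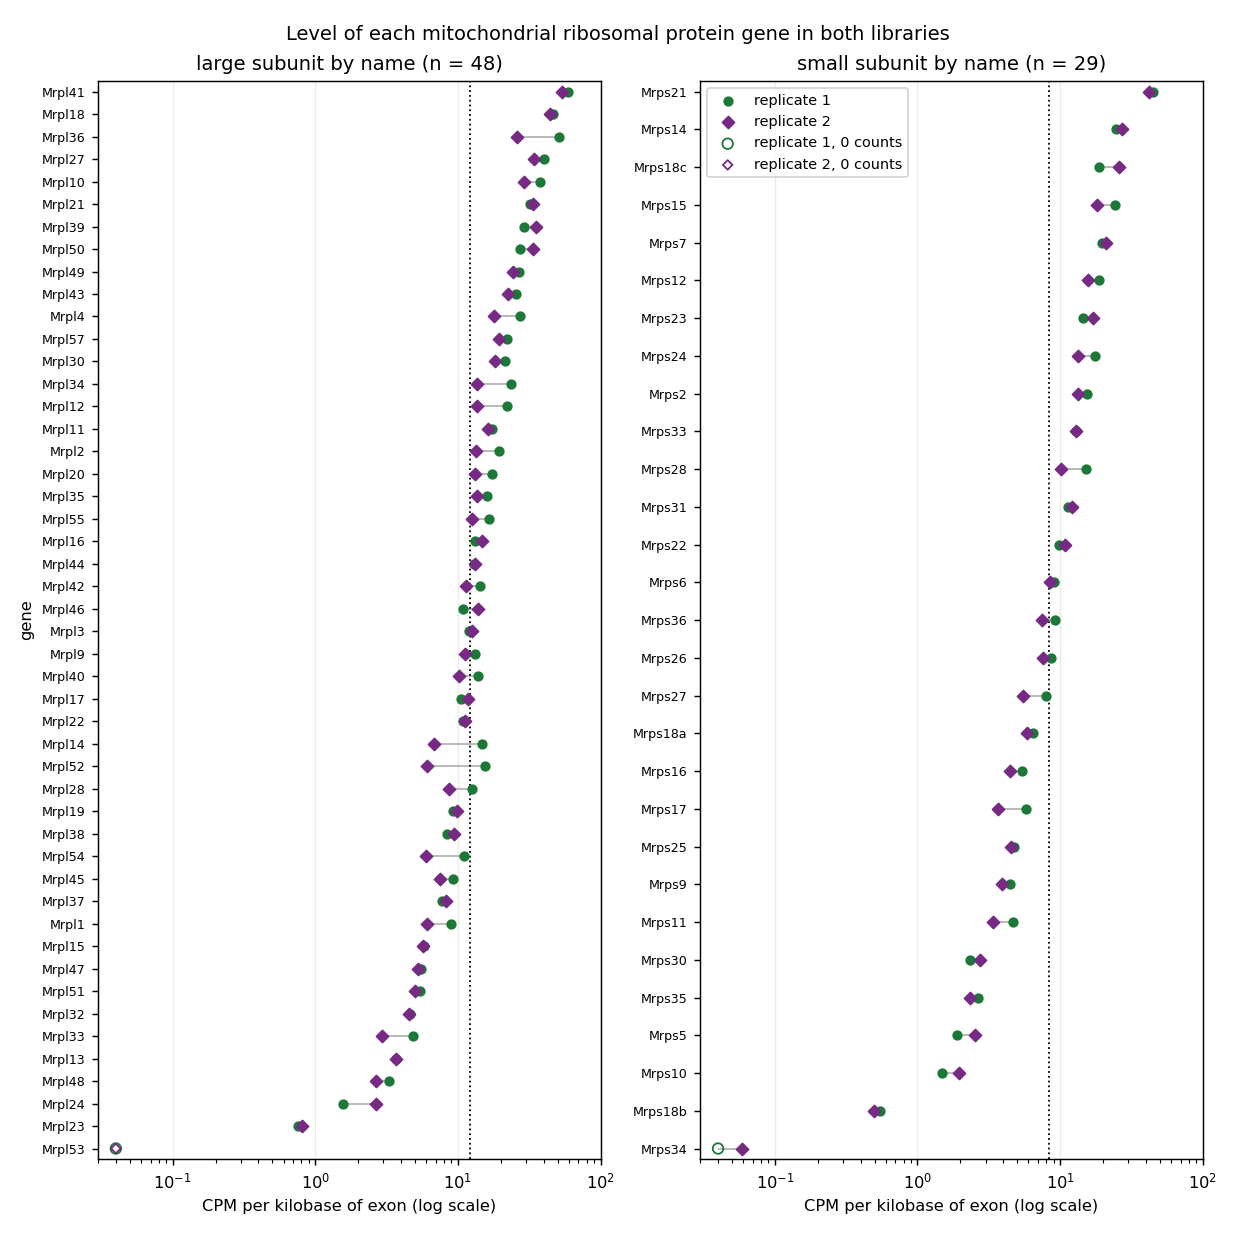
Level of each of the 77 members in CPM per kb of exon (log scale) in replicate 1 and replicate 2, ordered within the large and the small subunit; dotted lines are subunit medians and hollow markers are counts of 0. Mrpl41 and Mrps21 lead their subunits, and Mrpl53, Mrps34 and Mrps18b lie at the low end.

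In the small subunit, Mrps21 was highest, with 44.7 CPM per kb in replicate 1 and 42.0 in replicate 2. Mrps14 had 24.5 and 27.2, Mrps18c 22.4 ± 5.14 as a mean of both, and Mrps15 had 24.4 and 18.2 and Mrps7 19.8 and 21.1. Among the 6 genes around the decoding centre and tRNA sites (median 10.7 CPM per kb), Mrps12, the homologue of the bacterial decoding-centre protein, had 18.7 and 15.8. Mrps9 (4.43 and 3.93), Mrps11 (4.65 and 3.36) and Mrps10 (1.48 and 1.96) were low per kb in both libraries. By CPM, Mrps9 had 24.1 as a mean of both, against a small-subunit median of 22.7. Its merged exons hold 5763 bases and its longest transcript 2421. Along the mRNA path, Mrps24 had 17.5 and 13.5 CPM per kb, Mrps2 15.4 and 13.4, and Mrps5 1.90 and 2.54. Mrps35 was also among the lowest per kb, with 2.68 and 2.34, but had 21.7 CPM as a mean of both. Its merged exons hold 8631 bases and its longest transcript 4607. Mrps10 (8079 and 4090 bases) and Mrps5 (6578 and 4481) also have long merged exons, and had 13.9 and 14.6 CPM.

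Some names do not match the place of the protein. Mrps30 and Mrps18a lie in the large subunit in mammalian structures, and had 2.35 and 2.76 CPM per kb (Mrps30) and 6.49 and 5.84 (Mrps18a). The merged exons of Mrps30 hold 6666 bases and its longest transcript 3803, and it had 17.0 CPM as a mean of both libraries. Mrps36 belongs to the 2-oxoglutarate dehydrogenase complex of the citric acid cycle, and had 9.25 and 7.46 CPM per kb.

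The 3 homologues of bacterial ribosomal protein S18 covered a wide range. Mrps18c and Mrps18b are small-subunit proteins and Mrps18a a large-subunit one. Mrps18c (chr5:100798627-100804471, plus strand) had 632 counts in replicate 1 and 916 in replicate 2, or 22.4 ± 5.14 CPM per kb (SD, n = 2). Mrps18a (chr17:46110986-46128910, plus strand) had 750 and 705 counts, or 6.17 ± 0.460 CPM per kb. Mrps18b (chr17:35910379-35916389, minus strand) had 36 and 34 counts, or 0.550 and 0.498 CPM per kb. Per kb, Mrps18c was 34.1-fold above Mrps18b in replicate 1 and 52.3-fold in replicate 2, and Mrps18a 11.8-fold and 11.7-fold above it. Of the exon bases of Mrps18b, 30.5% lie under an annotated antisense gene, Gm16279, which has no line in the count tables; the part of this overlap in its level was not tested.

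The promoter windows of the 3 paralogues are shown because these related genes differ widely in level. Each runs 5′ to 3′ on the gene's strand, from 250 bases before to 50 bases after the RefSeq start (GRCm38.p6): chr17:46110754-46111053 plus for Mrps18a, chr17:35916391-35916690 minus for Mrps18b and chr5:100798509-100798808 plus for Mrps18c. Capitals mark letters searched on both strands for factors known to act on nuclear genes of mitochondria: GCGCA and GCGC with any 1 base between them (NRF1), CCGGAAGT (ETS factors such as GABP) and AAGATGGC (YY1).
Mrps18a: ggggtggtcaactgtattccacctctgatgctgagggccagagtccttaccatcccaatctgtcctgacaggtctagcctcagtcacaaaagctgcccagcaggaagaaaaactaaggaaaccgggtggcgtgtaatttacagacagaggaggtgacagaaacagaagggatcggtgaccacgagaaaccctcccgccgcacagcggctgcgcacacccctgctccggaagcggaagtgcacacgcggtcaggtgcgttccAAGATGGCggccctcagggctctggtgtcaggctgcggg
Mrps18b: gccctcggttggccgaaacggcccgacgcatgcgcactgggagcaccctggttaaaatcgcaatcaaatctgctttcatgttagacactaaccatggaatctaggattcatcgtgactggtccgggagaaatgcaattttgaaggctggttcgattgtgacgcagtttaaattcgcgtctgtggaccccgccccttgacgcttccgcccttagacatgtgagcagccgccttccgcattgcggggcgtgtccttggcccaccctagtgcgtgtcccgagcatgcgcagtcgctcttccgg
Mrps18c: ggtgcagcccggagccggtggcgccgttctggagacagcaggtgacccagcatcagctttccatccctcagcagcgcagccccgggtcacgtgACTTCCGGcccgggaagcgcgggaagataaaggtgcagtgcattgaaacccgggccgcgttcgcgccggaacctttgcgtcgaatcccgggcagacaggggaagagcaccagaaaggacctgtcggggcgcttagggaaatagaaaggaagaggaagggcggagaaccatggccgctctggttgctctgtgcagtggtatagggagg
The Mrps18a window holds the YY1 letters beginning 11 bases after the RefSeq start, the Mrps18c window the ETS letters on the other strand, and the Mrps18b window none of the 3. A match describes these letters only.

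Besides Mrps18b, a pair of members was near or at 0. Mrpl53 (chr6:83109040-83109939, plus strand) had 0 counts in both libraries, which allows up to 0.0958 CPM in replicate 1 and 0.0917 CPM in replicate 2. Mrps34 (chr17:24895116-24897502, plus strand) had 0 counts in replicate 1 and 4 in replicate 2. HTSeq by default gives no gene a read that overlaps several genes of the annotation used for counting. A gene with no line in the count tables may not have been in that annotation. Gm42688, on the same strand and with no such line, covers 88.0% of the exon bases of Mrpl53. Other genes cover 77.8% of those of Mrps34: Mapk8ip3 on the opposite strand 63.4% and Nme3 on the same strand 37.0%, both with lines. These were the highest shares among the members. Mrps25, with 69.8% under Nr2c2, still had 4.74 and 4.53 CPM per kb. In all, 32 of 77 members (41.6%) shared exon bases with another gene, against 37.5% of detected coding genes, and 10 shared at least 20%. The sources used here give neither the annotation nor the strand setting behind the counts, and the part of the overlaps in these levels was not tested.

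**Figure D3:**
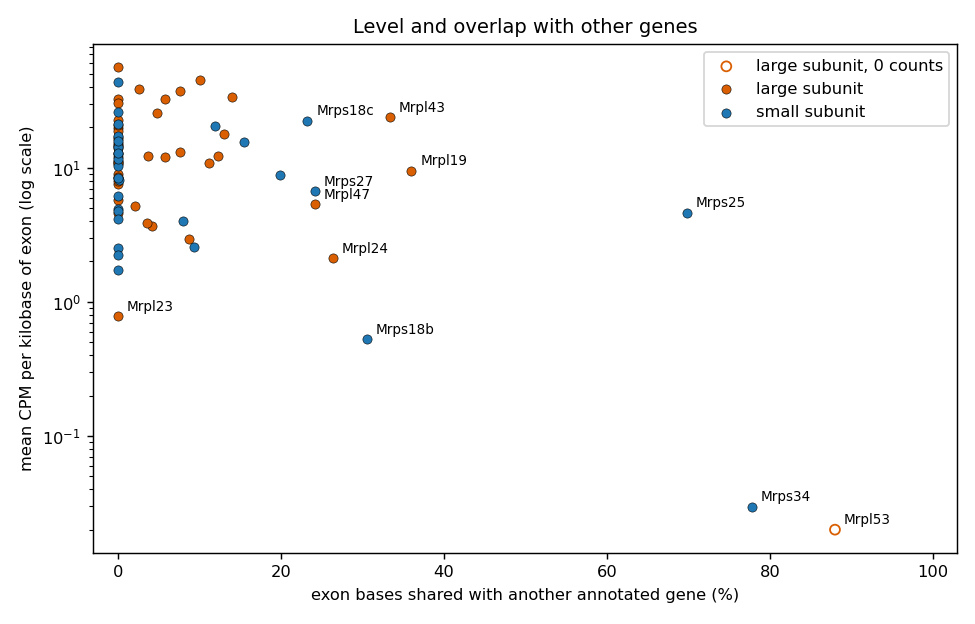
Level of each member in CPM per kb of exon (log scale, mean of 2 libraries) against the percentage of its exon bases shared with another annotated gene; hollow markers are counts of 0. Mrpl53 and Mrps34 combine the highest shares with the lowest levels, Mrps25 has a high share and 4.63 CPM per kb, and Mrpl23 is low with a share of 0.

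The libraries gave the members similar levels, with Pearson's r = 0.95 of log2 CPM across the 75 detected genes, which are not independent replicates. Log2 ratios of replicate 1 to replicate 2 used totals scaled by TMM, with 2 as the prior count. The members' median ratio was 0.06 and that of 13089 genes with a mean of at least 1 CPM was 0.01. Of 75 members, 44 were above 0, where the share of all genes was 50.8%. The counting interval left out a ratio of 1 for 50 of 75, where the share of all genes was 72.9%. The members' log2 ratios had an SD of 0.37, against 0.68 over the 13089 genes and 0.54 over the 11478 protein-coding genes detected in both libraries.

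At least 1.5-fold higher in replicate 1 were 7 of 75 members, where the share of all genes was 14.3%. Mrpl52, a protein of the central protuberance, had 17.2 CPM in replicate 1 against 6.76 in replicate 2, and thus a log2 ratio of 1.25, with an exact 95% interval for counting error of 1.03 to 1.49. Mrpl14, which lies at the subunit interface, had 14.1 and 6.45 CPM (1.02, 0.79 to 1.27). Mrpl36 had 59.2 and 29.9 CPM (0.89, 0.78 to 1.01). Also past the fold were Mrpl54 (9.17 and 4.92 CPM), Mrpl34 (14.4 and 8.32), Mrpl33 (35.6 and 21.6) and Mrpl12 (34.1 and 20.7), with log2 ratios of 0.80, 0.69, 0.63 and 0.62. Only Mrpl24 was past it the other way, at 3.55 CPM in replicate 1 against 5.99 in replicate 2 (log2 ratio -0.84), where the share of all genes was 12.6%. All 8 are large-subunit genes, of 47 detected, and 0 of 28 small-subunit genes passed the fold; with library totals the small-subunit gene Mrps17 passed it (0.65), and with the median of each length bin subtracted Mrps18c did (-0.71). Just short of it were Mrps18c at -0.56, Mrps17 at 0.56 and Mrpl4 at 0.52. The shares of members past the fold were below those of all genes in both directions.

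The ratio varied with exon length. Members under 1 kb had a median log2 ratio of 0.30 (8 genes), those of 1 to 2 kb 0.25 (22 genes), those of 2 to 3 kb 0.10 (15 genes) and those over 3 kb -0.04 (30 genes). Over all genes the same bins gave 0.15, 0.14, 0.08 and -0.02. Of the 7 members higher in replicate 1, 6 were under 2 kb; the exception was Mrpl33, at 7326 bases. Spearman's rho of ratio with exon length was -0.34 across 75 members and -0.13 across 12382 genes with a length, as a description. It was -0.31 across 75 cytosolic ribosomal protein genes and -0.22 across 75 oxidative phosphorylation subunits. The ratio varied with level too. Spearman's rho of ratio with mean CPM was -0.21 across the 75 members and -0.18 across the 12382 genes. It was -0.26 across the cytosolic ribosomal protein genes and -0.37 across the oxidative phosphorylation subunits. The causes of the length and level patterns, and how far the patterns overlap, were not tested.

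**Figure D4:**
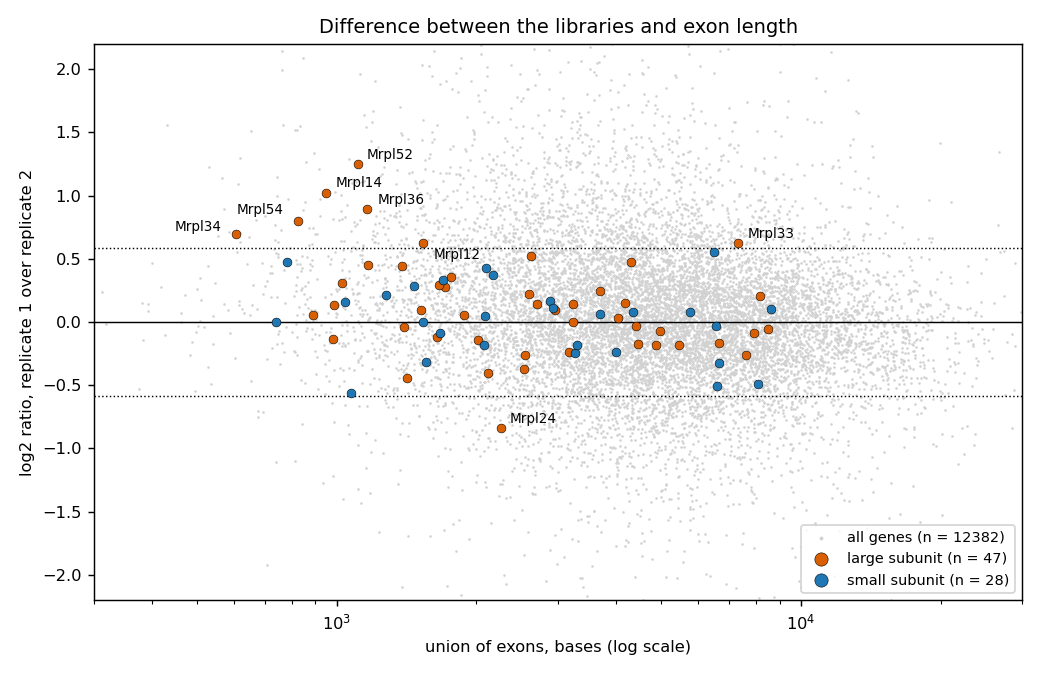
Log2 ratio of replicate 1 to replicate 2 against exon length in bases (log scale) for the 75 detected members, beside all genes. Short members lie mostly above 0, Mrpl52 is highest at 1.25 and Mrpl24 lowest at -0.84.

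Ribosomal proteins without Mrpl or Mrps in their symbol were also present: 6 of 6 were detected, where the share over all gene symbols was 38.1%. Their median was 7.82 CPM per kb. They were Chchd1 (23.8 CPM in replicate 1 and 27.0 in replicate 2), Aurkaip1 (47.7 and 36.8), the GTP-binding Dap3 (57.1 and 57.5), Ptcd3 (4.82 ± 0.203 CPM per kb), Gadd45gip1 (7.09 and 6.18) and Ict1 (28.0 and 17.3), a peptidyl-tRNA hydrolase built into the large subunit. Ict1 was the only 1 of the 6 past 1.5-fold between the libraries, higher in replicate 1. The shares of all genes were 14.3% higher in replicate 1 and 12.6% higher in replicate 2.

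All 11 translation factors were detected, where the share over all gene symbols was 38.1%, here and for the lists below. The initiation factor Mtif2 was highest, with 37.1 and 45.2 CPM (10.6 ± 1.49 CPM per kb, SD, n = 2), followed by the elongation factors Tufm, with 12.6 and 13.5 CPM (6.15 ± 0.298 CPM per kb), and Gfm1, with 25.2 CPM in replicate 1 (5.92 ± 0.317 CPM per kb). Guf1 was lowest at 0.849 ± 0.0333 CPM per kb. Tsfm, the exchange factor of Tufm, was higher in replicate 1 (9.84 and 4.71 CPM) and the release factor Mtrf1l lower (log2 ratio -0.63). For this list and those below, the shares of all genes past 1.5-fold were 14.3% higher in replicate 1 and 12.6% higher in replicate 2.

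All 25 assembly factors were detected too. Ngrn (15.2 ± 1.06 CPM per kb), the GTPase Noa1 (10.8 ± 1.70) and Eral1 (8.90 ± 2.06), which binds small-subunit ribosomal RNA, were highest and Mtg2 lowest (0.510 ± 0.0455). Mettl17, Ybey and Wbscr16 were at least 1.5-fold higher in replicate 1 (log2 ratios 1.21, 0.88 and 0.84) and the RNA methyltransferases Nsun4 and Mettl15 lower (-0.94 and -0.83). Of 7 genes of mitochondrial transcription and mRNA stability, Tfam, which packages mitochondrial DNA and takes part in starting its transcription, was highest (67.2 and 59.8 CPM, or 14.3 ± 1.18 CPM per kb). Lrpprc, which stabilises mitochondrial mRNAs, had 46.7 and 70.6 CPM (6.90 ± 1.99 CPM per kb) and Tfb2m 5.80 ± 0.144 CPM per kb. The DNA polymerase Polg was lowest, at 1.11 ± 0.295 CPM per kb. Peo1, the mitochondrial helicase, was past 1.5-fold higher in replicate 1 (log2 ratio 0.69), and Lrpprc and Polg lower (-0.69 and -0.64). Of 3 genes of membrane insertion and translational activation, Oxa1l, the inner-membrane insertase, was highest at 12.7 ± 1.04 CPM per kb, above Letm1 (6.73 ± 0.856) and Taco1 (6.44 ± 0.136).

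The 9 transcriptional regulators of mitochondrial genes were all detected, and all 9 had a log2 ratio under 0 (median -0.35). Of all genes, 50.8% had a ratio above 0. The 9 had a median exon length of 6418 bases, and all genes over 3 kb had a median ratio of -0.02. The coactivator Ppargc1a had 148 CPM in replicate 1 and 153 CPM in replicate 2, Gabpa 81.6 and 112 CPM, Yy1 41.6 and 49.8 CPM and Nrf1 24.4 and 27.5 CPM. Gabpb1 had 53.9 and 68.1 CPM. Esrra was lowest, at 1.38 ± 0.249 CPM per kb, and Gabpb2 was past 1.5-fold (-0.90).

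The members lie on 17 chromosomes. Of 77, 33 (42.9%) had a coding neighbour on the opposite strand whose 5′ end lies within 1000 bp, against 16.2% of detected coding genes. In 18 of the 33 the 5′ ends are apart and the genes point away from each other, and in 15 the 5′ ends overlap. Examples, picked after the values were seen, are Ndufs6, a complex I subunit, beside Mrpl36, and Sars2, a mitochondrial tRNA synthetase, beside Mrps12; the roles of the partners were not counted. The member had the higher CPM in 17 of 30 pairs whose partner is no member and has a line of its own. Of 26 pairs with both genes at 1 CPM or more on average, 13 had log2 ratios of the same sign.

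In 1 pair both genes are members. Mrps11 (10.1 and 7.31 CPM in replicates 1 and 2) and Mrpl46 (15.3 and 19.5 CPM) overlap by 412 bp at their 5′ ends, and differed in opposite directions between the libraries, with log2 ratios of 0.37 and -0.44. Per kb, Mrpl46 was 2.32-fold above Mrps11 in replicate 1 and 4.09-fold in replicate 2. Their windows, chr7:78782881-78783180 plus and chr7:78783040-78783339 minus, share 141 bases. They are shown with that of Mrps26 (chr2:130563507-130563806 plus), a small-subunit gene whose window holds both the ETS and the NRF1 letters.
Mrps11: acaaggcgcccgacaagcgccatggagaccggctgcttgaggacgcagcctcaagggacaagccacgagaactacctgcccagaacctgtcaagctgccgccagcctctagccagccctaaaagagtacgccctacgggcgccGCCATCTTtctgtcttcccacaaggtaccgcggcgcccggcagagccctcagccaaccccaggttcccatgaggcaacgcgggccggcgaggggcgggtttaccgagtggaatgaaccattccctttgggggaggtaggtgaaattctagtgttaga
Mrpl46: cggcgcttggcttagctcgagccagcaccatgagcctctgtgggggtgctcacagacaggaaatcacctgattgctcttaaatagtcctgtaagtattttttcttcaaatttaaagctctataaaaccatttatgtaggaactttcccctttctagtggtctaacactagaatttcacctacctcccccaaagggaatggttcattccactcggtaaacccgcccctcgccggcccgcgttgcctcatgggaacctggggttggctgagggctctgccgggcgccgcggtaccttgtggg
Mrps26: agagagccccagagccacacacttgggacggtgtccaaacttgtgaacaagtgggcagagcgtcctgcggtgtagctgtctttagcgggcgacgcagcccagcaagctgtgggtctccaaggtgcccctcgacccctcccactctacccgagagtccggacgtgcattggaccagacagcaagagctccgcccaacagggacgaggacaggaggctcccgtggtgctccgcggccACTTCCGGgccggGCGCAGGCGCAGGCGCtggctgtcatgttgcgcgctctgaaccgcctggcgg
The Mrps11 window holds the YY1 letters on the other strand, outside the shared bases. In the Mrps26 window the NRF1 letters occur in overlapping copies at the start. Mrps26 had 37.4 CPM in replicate 1 and 33.2 CPM in replicate 2.

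RefSeq windows were found for 68 of 77 members. Of these, 33 (48.5%) held the letters of NRF1, ETS or YY1, against 23.0% of 8826 detected coding genes and 10.8% of 27025 promoters. The YY1 letters were in 12 windows (17.6%, against 4.96% of detected coding genes), 9 of them within 50 bases of the start. In all of these 9 but Mrpl36, the letters began 11 (Mrps18a) to 36 (Mrps24) bases after the start, on the gene's strand. There the ATG within AAGATGGC can be the start codon of the protein, which was not tested. The NRF1 letters were in 13 (19.1% against 11.4%) and the ETS letters in 11 (16.2% against 8.66%). Of 66 oxidative phosphorylation subunits, 24.2% held the NRF1, 7.58% the ETS and 12.1% the YY1 letters. Of 56 cytosolic ribosomal protein genes, 5.36% held the NRF1, 17.9% the ETS and 7.14% the YY1 letters. GGGCGG, the letters of SP factors, were in 34 of 68, against 66.2%, and CACGTG, an E-box, in 5 (7.35% against 10.4%). Detected members with the NRF1 letters had a median of 12.1 CPM per kb and those without 12.2. For ETS the medians were 10.8 with and 12.5 without, and for YY1 13.8 with and 12.1 without.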

How the data were processed

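Ribosome-associated RNA of the dentate gyrus was sequenced in 2 libraries of 1 group. The deposited values are raw counts per gene symbol; STAR 2.0.0e, HTSeq and build mm10 are named per the submitters' processing notes. The sources used here give neither the annotation nor the strand setting. Reads of a gene and an overlapping or antisense gene cannot then be told apart.

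Summary lines and a line named unknown were left out of totals (65.0% and 64.9% of all lines' counts were on genes). CPM, and CPM per kb of merged exons (GENCODE M21, GRCm38), were computed here. Detection meant at least 1 CPM in both libraries. Log2 ratios used TMM from edgeR 4.0.16; intervals are exact (Clopper-Pearson), at 95%. Intervals and the floor of 3 counts for a 0 describe only counting error: without molecular identifiers, reads are not independent molecules. The ratio code was tested on simulated data.

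Members and gene lists were chosen with earlier results of these data known. Named in full were the 5 highest and lowest members per kb of each subunit, members under 1 CPM or past 1.5-fold, the S18 paralogues and members with a stated role; of other lists, the 3 highest, the lowest and those past 1.5-fold; a few others were picked after their values were seen. Alternatives were DESeq2 1.42.0 size factors, library totals, other prior counts and filters, the longest transcript and leaving out a library. Promoter sequences are from RefSeq.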

Additional observations from a re-analysis of the deposited data

Results flagged for a closer look

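Part of the reads lay outside the gene counts. Reads overlapping several genes were 2.61% of all lines' counts in replicate 1 and 2.56% in replicate 2. Separately, 3 members share most of their exon bases with another gene, for Mrpl53 a gene with no line in the counts. Mrpl53 and Mrps34 had 0 to 4 counts a library, whereas Mrps25 had 31.1 CPM in replicate 1 and 29.8 CPM in replicate 2. Reads overlapping no gene were 16.7% and 17.0%, and reads with more than 1 alignment 15.7% and 15.5%. Annotated pseudogenes named after a member, 5 in number, exist for 3 members (Mrpl23, Mrpl48 and Mrps36), whose reads can fall in the class with more than 1 alignment. Pseudogenes under other symbols were not searched for. Which members, or which genes of the other lists, these reads come from was not tested.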

How the results depend on the processing

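The members' share of gene counts was 0.259% with Rn45s and Lars2 out of the totals. Per kb of the longest transcript the medians were 15.9 (large) and 12.1 (small subunit). On that scale the median of the cytosolic ribosomal genes was 5.45-fold and that of the oxidative phosphorylation subunits 4.98-fold that of the members, so these lists changed order. The members' median was 2.80-fold that of the translation factors and 4.07-fold that of the assembly factors. Per kb of merged exons with 1 library left out, the subunit medians ranged over 12.2 to 13.6 (large) and 7.61 to 9.13 (small). The small-subunit median was 11.0 without members that share exon bases (18 genes) and 9.56 by place in the ribosome. For the large subunit these were 12.8 (27 genes) and 12.2. The median log2 ratio was 0.15 with library totals (all genes 0.10) and 0.17 without Rn45s and Lars2 (all genes 0.12), so the members moved with all genes. Subtracting the median of each exon-length bin, chosen after seeing the data, gave 0.011 (all genes 0). It left 5 members higher in replicate 1 (12.7% of all genes), without Mrpl12 and Mrpl34, and 3 higher in replicate 2 (11.7%): Mrpl24, Mrpl46 and Mrps18c. With every member that had a count, 2 were higher in replicate 2 (21.6%), Mrps34 being added on 4 counts. Library totals gave 9 higher in replicate 1 (18.1%), adding Mrpl4 and Mrps17. DESeq2 size factors, a prior count of 0.5 and a minimum of 20 counts each left the counts at 7 and 1. No paired analysis was possible because there is 1 group.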
